A study of Mus musculus with 6 samples.

Results

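Zbp1 and Casp8 encode sensors and switches of regulated cell death, and they are described here in lymphatic endothelial cells of the mouse meninges. They are 2 of the 4233 genes in the deposited table, found by their symbols in its first column. They were chosen because earlier results of these data gave them as higher in 5xFAD than in WT, so their own genotype difference is a description without a test. The cells came from male C57BL/6J mice aged 6 months. WT mice were non-transgenic littermates. 5xFAD mice were hemizygous for transgenes of familial Alzheimer's disease that run under the Thy1 promoter, which is mainly neuronal, and deposit amyloid in the brain. There were 3 libraries per genotype. Each was made from a pool of 10 mice, so that 1 value is an average over animals, and cells were gated as live singlets negative for CD45 and positive for CD31 and podoplanin. RNA was amplified linearly before sequencing. Values are normalised counts, that is, read counts divided by 1 factor per library.

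ZBP1 binds left-handed double-stranded nucleic acid, called Z-RNA or Z-DNA, through its Z-alpha domains. Its RIP homotypic interaction motif (RHIM) then recruits the kinase RIPK3, which activates the pore-forming protein MLKL and so drives necroptosis, a lytic form of death. Caspase-8 is the initiator caspase of the death receptors. With FADD it starts apoptosis, and paired with the FLIP protein encoded by Cflar it cleaves RIPK1 and RIPK3 and so holds necroptosis back. ZBP1 can also engage caspase-8 through RIPK1. Zbp1 is a well-known interferon-induced gene, and endothelial caspase-8 is needed for vessel development in the mouse embryo. Of the partners named here, Ripk1, Ripk3, Mlkl and Fadd were not analysed here.

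Casp8 lies on chromosome 1 (GRCm38, 58795374 to 58847503, plus strand) and has 4 annotated transcripts, of which Casp8-202 starts at 58802502. The 250 bases before that start, at chr1:58802252-58802501, hold no annotated exon and lie inside the longer transcripts. They are shown beside the same window of Ifit3b (chr19:34607707-34607956, plus strand), the 1 other cell death or sensing gene that passed the test below, to set the letters of both side by side in a search for interferon response motifs. In Ifit3b capitals mark matches to the response element, and in Casp8 they mark a GAAA repeat of another spacing, which is not that element. Both sequences are from RefSeq (GRCm38.p6), and the promoter table used here held no entry for Zbp1.
Casp8: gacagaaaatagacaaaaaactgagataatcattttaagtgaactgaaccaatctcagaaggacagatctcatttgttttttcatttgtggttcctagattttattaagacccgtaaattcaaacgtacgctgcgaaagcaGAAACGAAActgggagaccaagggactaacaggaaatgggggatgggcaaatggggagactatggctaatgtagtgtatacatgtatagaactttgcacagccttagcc
Ifit3b: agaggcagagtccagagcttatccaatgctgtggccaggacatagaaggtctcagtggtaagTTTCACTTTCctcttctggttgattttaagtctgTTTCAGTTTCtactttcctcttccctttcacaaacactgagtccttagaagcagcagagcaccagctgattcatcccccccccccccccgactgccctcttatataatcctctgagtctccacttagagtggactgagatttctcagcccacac
The core of the interferon-stimulated response element was searched as 2 GAAA units with 2 bases between them on both strands. It had 2 matches before Ifit3b, at 188 to 179 and at 154 to 145 bases before the start. The window before Casp8-202 held 0 matches, and the windows before the other Casp8 starts were not searched. The core was in 2.98% of all 32851 windows of 250 bases. The palindromic gamma-activated sequence, searched as TTC and GAA with 3 bases between them, had no match in either window and was in 7.02% of all windows. The Casp8 window holds 2 GAAA units with only 1 base between them, at 109 to 101 bases before the start. This closer spacing, on either strand, was searched after the sequence had been read, and 2.68% of all windows hold it. Among the other cell death and sensing genes tested, 34 had an entry and 4 held the response element, namely Ifit3b, Ifit1, Isg15 and Oas3. Counted by gene, 3.46% of all 27025 genes with an entry held it. The lists include interferon target genes by design, so nothing is read from this share. Such matches describe letters and not binding, and the table does not tell which start the Casp8 reads came from.

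Zbp1, on chromosome 2 (GRCm38, 173206612 to 173218923, minus strand, 3 transcripts), was at 102, 25.1 and 112 normalised counts in the 3 WT libraries and at 4853, 2605 and 840 in the 3 5xFAD libraries. The groups did not overlap, and the lowest 5xFAD library was 7.48 times the highest WT library. The mean of WT was 79.8 ± 47.6 and that of 5xFAD 2766 ± 2011 (SD, n = 3 each), 34.7-fold apart, with a difference of 5.03 on the scale of log2(value + 1). The log2 values had an SD of 1.18 within WT and 1.28 within 5xFAD. Among the 4152 genes with a mean of at least 10, this was the 18th highest log2 difference. The WT values rest on few reads: WT 2 held 27 (exact 95% Poisson interval 17.8 to 39.3), WT 1 124 and WT 3 127, against 5851, 2143 and 633 in 5xFAD. Such intervals cover counting error only. In WT the gene stood low in its library, above 10.3% to 26.1% of listed genes, and in 5xFAD above 58% to 89.6%.

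Casp8 was at 355, 145 and 404 normalised counts in WT and at 4519, 1246 and 6979 in 5xFAD. Again the groups did not overlap, and the lowest 5xFAD library was 3.08 times the highest WT library. The means were 301 ± 138 and 4248 ± 2876 (SD, n = 3 each), 14.1-fold apart, with a log2 difference of 3.62 and within-group SDs of 0.80 in WT and 1.29 in 5xFAD. Its log2 difference was the 46th highest. Reads ran from 156 to 457 in WT and from 1025 to 5448 in 5xFAD. The gene stood above 27.4% to 44.1% of listed genes in WT and above 66.3% to 92.6% in 5xFAD. The predicted transcript Gm37760 lies within the Casp8 locus on the same strand and was not analysed here.

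**Figure D1:**
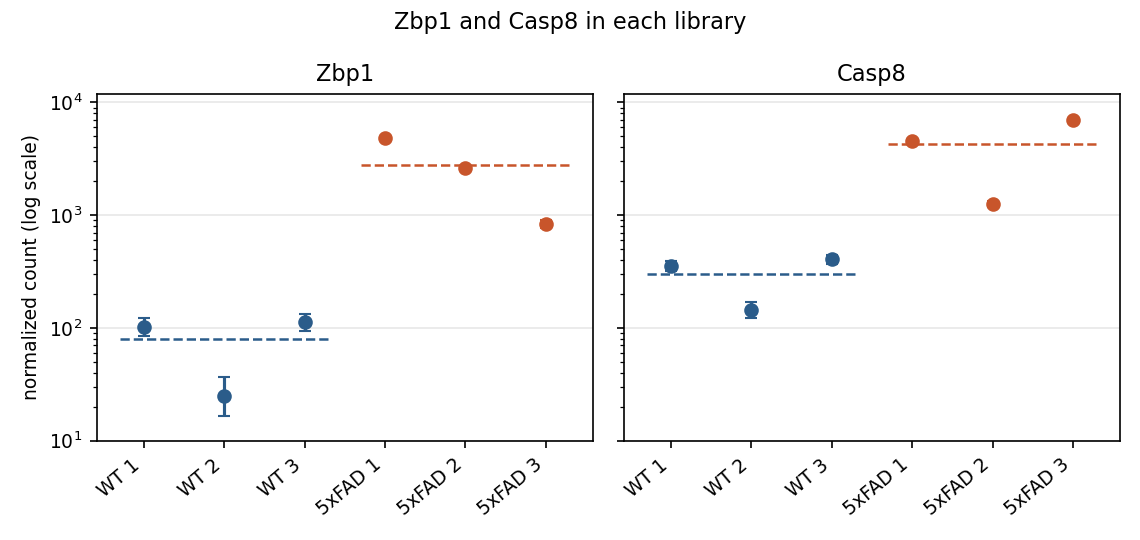
Normalised counts (log axis) of Zbp1 and Casp8 in each library. Points are libraries, bars exact 95% Poisson intervals of the reads and dashed lines group means. Every 5xFAD library lies above every WT library for both genes, and WT 2 is the lowest library for both.

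As background for counts of genes with groups apart, 7.97% of all tested genes had every 5xFAD library above every WT library and 10.1% had every one below. Since both genes were chosen on this contrast, nothing is read from their place in it. The table also lists only genes whose replicates stay within a limit: the highest SD of log2(reads + 1) was 1.9996 in WT and in 5xFAD. On that scale Zbp1 had an SD of 1.26 in WT and 1.61 in 5xFAD, and Casp8 0.87 and 1.38, against medians over all listed genes of 0.96 and 1.08. Both genes therefore varied more than the median listed gene within 5xFAD, and in WT only Zbp1 did.

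The libraries were ordered alike for the members in WT but not in 5xFAD. In WT both were lowest in WT 2 and highest in WT 3. Within 5xFAD, Zbp1 was highest in 5xFAD 1 and lowest in 5xFAD 3, the library in which Casp8 was highest, and Casp8 was lowest in 5xFAD 2. Single libraries moved the sizes by over 1.5 times. The Zbp1 log2 difference was 4.35 without WT 2 and 5.72 without 5xFAD 3, and that of Casp8 was 4.35 without 5xFAD 2. Over all 6 libraries the members' log2 values had a Pearson correlation of 0.85, which includes the genotype difference and is given as a description only. With 3 libraries per genotype few orders are possible. Where a gene below shares an order, or a highest or lowest library, with a member, this is a description only. The share of all tested genes that do so was not counted.

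Per kilobase of annotated exon (3.53 kb for Zbp1, 2.89 kb for Casp8), the levels were in the order Casp8 in 5xFAD (1468 ± 994 normalised counts per kb), Zbp1 in 5xFAD (784 ± 570), Casp8 in WT (104 ± 47.6) and Zbp1 in WT (22.6 ± 13.5; SD, n = 3 each). The first pair overlapped, with Casp8 from 431 to 2412 and Zbp1 from 238 to 1375. The other neighbours in this order did not overlap. In WT the level of Casp8 per kb was 4.25, 7.05 and 4.39 times that of Zbp1 in libraries 1, 2 and 3. The WT 2 ratio rests on 27 Zbp1 reads (exact 95% Poisson interval 17.8 to 39.3) and is imprecise. In 5xFAD it was 1.14, 0.58 and 10.1 times. On the log2 scale the WT ratio averaged 2.35 ± 0.41 and the 5xFAD ratio 0.92 ± 2.15 (SD, n = 3), so the ratio spread far more among the 5xFAD libraries and the groups overlapped. The effective lengths used in read assignment were not used here, so these ratios are approximate.

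**Figure D2:**
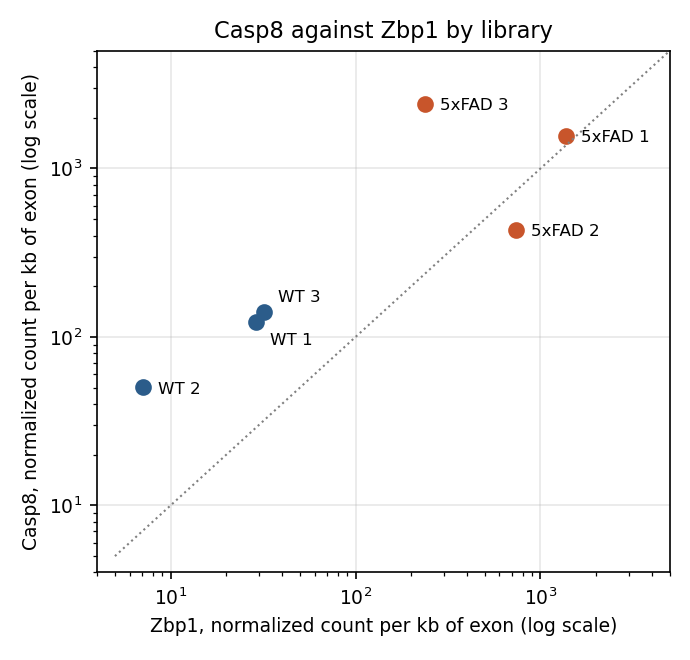
Casp8 against Zbp1, both in normalised counts per kb of exon on log axes, 1 point per library, with a dotted line of equal level. The WT libraries lie above the line of equality, while 5xFAD 1 is near it (ratio 1.14), 5xFAD 2 below it (0.58) and 5xFAD 3 far above it (10.1).

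Of the wider cell death and sensing machinery, few genes passed the test. From 7 lists with 162 symbols, 40 genes beside Zbp1 and Casp8 were tested, and 1 was higher in 5xFAD (Ifit3b) and 0 were lower (limma, Benjamini-Hochberg adjusted p under 0.05). Of all 4152 genes tested, 1.88% were called higher and 4.48% lower, 6.36% in all (78 and 186 genes, against 120 and 160 under quantile normalization), so 1 of 40 higher is near the background. EdgeR, at an adjusted p under 0.05, also called 1 higher and 0 lower. At an unadjusted p under 0.05 in limma there were 4 higher (Ifit3b, Ifit2, Ifngr1 and Apaf1) and 0 lower. Of all tested genes, 6.7% passed that threshold higher and 9.61% lower. The genes were split evenly, 20 with a positive and 20 with a negative log2 fold change. The median was 0.07 against -0.02 for all tested genes. The groups did not overlap for 3 higher (Casp12, Ifngr1 and Nfkb1) and 4 lower genes (Pdcd6ip, Txnip, Samhd1 and Oas3), 17.5% of the 40 against 18.1% of all tested genes.

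In the list of death receptor signalling and the caspase-8 complex, 0 of 9 tested genes beside Casp8 passed limma, with 0 at an unadjusted p under 0.05 and a median log2 fold change of -0.16. Cflar, which encodes the FLIP protein that pairs with caspase-8, was at 2618, 2716 and 5106 normalised counts in WT and at 532, 2023 and 2933 in 5xFAD. Its log2 fold change was -1.17 (95% interval -2.78 to 0.43; limma adjusted p = 0.528), and the groups overlapped through 5xFAD 3. Ikbkb, a kinase that activates NF-kB after receptor engagement, had the highest log2 fold change of this list (0.94; limma adjusted p = 0.581). Xiap, an inhibitor of executioner caspases, was at 4251 ± 1050 in WT and 2657 ± 852 in 5xFAD, and the death ligand Tnfsf10 (TRAIL) at 3052 ± 384 and 3332 ± 2486 (SD, n = 3). Neither passed limma (adjusted p = 0.745 and 0.954).

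Among necroptosis genes, 0 of 4 tested beside Zbp1 passed limma, with 0 at an unadjusted p under 0.05 and a median log2 fold change of -0.22. Pdcd6ip (ALIX), which acts with the ESCRT machinery in membrane repair, was at 4028, 4028 and 7873 in WT and at 2474, 3190 and 1731 in 5xFAD. Every 5xFAD library was thus below every WT library, with a log2 fold change of -1.07 that did not pass (limma adjusted p = 0.518). The chaperone gene Hsp90aa1 and its co-chaperone Cdc37, which serve many kinases, RIPK3 among them, had log2 fold changes of -0.12 and 0.19.

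In mitochondrial apoptosis 0 of 4 tested genes passed limma. At an unadjusted p under 0.05 there was 1 higher, against 6.7% of all tested genes. All 4 had a positive log2 fold change, with a median of 0.82. Apaf1, the scaffold of the apoptosome that activates caspase-9, was at 1280, 2015 and 601 in WT and at 8079, 969 and 8594 in 5xFAD. It was high in 5xFAD 1 and 5xFAD 3 but within the WT range in 5xFAD 2 (log2 fold change 1.81, 95% interval 0.20 to 3.43; limma adjusted p = 0.210). It passed in 1 of 16 alternatives, the one without 5xFAD 2 (log2 fold change 2.85; limma adjusted p = 0.0268). Without 5xFAD 1 the log2 fold change was 1.32 and without 5xFAD 3 it was 1.27 (limma adjusted p = 0.576 and 0.602). Casp8 was also highest in 5xFAD 1 and 5xFAD 3, and a link between the 2 genes was not tested. Mcl1, an anti-apoptotic BCL2 relative, was at 14774, 7721 and 2002 in 5xFAD, in the same order as Zbp1, and at 3614, 3050 and 1784 in WT (log2 fold change 1.18; limma adjusted p = 0.428). Bcl2l11 (BIM) had a log2 fold change of 0.15.

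Casp12, an endoplasmic reticulum caspase and the other caspase gene tested here, was at 240, 142 and 46 in WT and at 457, 400 and 374 in 5xFAD. The groups did not overlap, and the log2 fold change of 1.80 (95% interval -0.26 to 3.86) did not pass (limma adjusted p = 0.410). In its list of pyroptosis and inflammasome genes 0 of 3 passed limma and 0 had an unadjusted p under 0.05. Gsdme, a pore-forming gasdermin cut by caspase-3, had a log2 fold change of 0.17, and Txnip, which binds thioredoxin and NLRP3, of -0.40.

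ZBP1 is a nucleic acid sensor, and among the others of that list 0 of 9 tested passed limma, with 0 at an unadjusted p under 0.05. The log2 fold change was below 0 for 7 of the 9, with a median of -1.12 against -0.02 for all tested genes. A shift of the list as a whole was not tested. Adar, the RNA-editing enzyme that keeps double-stranded self RNA from ZBP1, was at 1533, 509 and 4482 in WT and at 1121, 1140 and 167 in 5xFAD. Its groups overlapped (log2 fold change -1.34, 95% interval -3.19 to 0.51; limma adjusted p = 0.533). Within 5xFAD Adar was lowest in 5xFAD 3, the library with the least Zbp1. Eif2ak2, the double-stranded RNA kinase PKR, was at 1695 ± 690 and 3725 ± 2352 (SD, n = 3; log2 fold change 1.04; limma adjusted p = 0.604). The lowest of the list was Oas3, an activator of RNase L, at 304, 46.5 and 50.4 in WT and 42.3, 20.7 and 21.2 in 5xFAD (-1.72; limma adjusted p = 0.449). The highest was Trim25, a ubiquitin ligase of RIG-I signalling (1.55; limma adjusted p = 0.364).

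In the list of interferon receptor signalling and target genes 1 of 8 tested genes rose and 0 fell, against 1.88% and 4.48% of all tested genes. At an unadjusted p under 0.05 there were 3 higher, against 6.7% of all tested genes. With 8 genes nothing is read from these counts. Ifit3b, an interferon-induced gene of the IFIT family, was at 5.75, 55.8 and 5.31 in WT and at 50.6, 537 and 91.5 in 5xFAD. The log2 fold change was 3.35 with an SE of 1.07 (limma adjusted p = 0.0305). WT 2 overlapped with 5xFAD 1, and the call was lost without WT 1, WT 3, 5xFAD 2 or 5xFAD 3 (limma adjusted p up to 0.305). The fold was 4.39 on the log2 scale without WT 2, 4.06 without 5xFAD 1 and 2.36 without 5xFAD 2. Ifit3b is closely related to Ifit3, and the split of reads between the 2 was not looked at here. Ifngr1, a subunit of the receptor for interferon gamma, was at 1802, 493 and 466 in WT and 7815, 2563 and 2221 in 5xFAD, with groups that did not overlap (log2 fold change 2.25; limma adjusted p = 0.109). Its 5xFAD libraries were in the same order as for Zbp1, which with 3 libraries is a description only. Isg15, a ubiquitin-like protein that interferon induces strongly, was at 1411, 188 and 459 in WT and 286, 80.2 and 171 in 5xFAD (log2 fold change -1.64; limma adjusted p = 0.463). Irf9, the DNA-binding part of the interferon-stimulated factor, was at 997 ± 545 and 2081 ± 1234 (SD, n = 3; limma adjusted p = 0.637). The target genes Ifit2 and Ifit1 had log2 fold changes of 2.43 and 0.76 (limma adjusted p = 0.138 and 0.462). Of the target genes of this list, Isg15 alone was below 0, but the grouping into lists matters here. Among the tested cell death and sensing genes that held the response element, Ifit3b and Ifit1 were above 0. Isg15 and Oas3 were below it, and Oas3 (-1.72) was placed in the nucleic acid sensing list. An interferon response as a source of the Zbp1 level was not tested.

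Of the NF-kB genes 0 of 3 passed limma, with 0 at an unadjusted p under 0.05, and all 3 had a positive log2 fold change. Nfkb1, a DNA-binding subunit, was at 1152, 1691 and 850 in WT and 6526, 2618 and 2768 in 5xFAD, without overlap (1.61; limma adjusted p = 0.315). Rel, another subunit, had the lowest log2 fold change of the list (0.76).

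**Figure D3:**
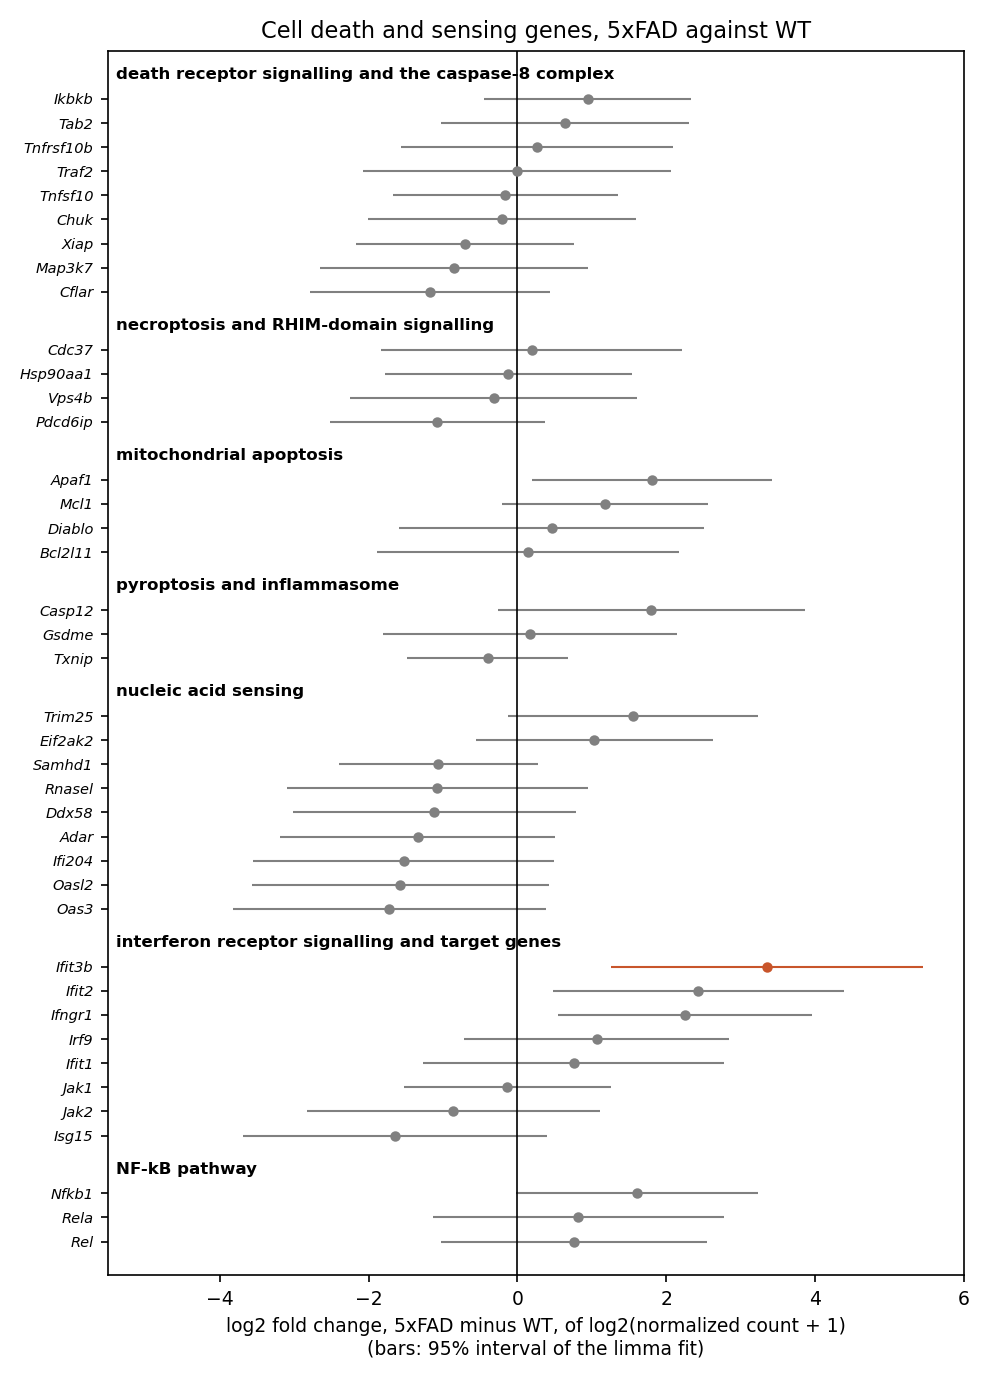
Log2 fold change (5xFAD minus WT) of the 40 cell death and sensing genes tested, Zbp1 and Casp8 left out, grouped by list, with 95% intervals of the limma fit. Ifit3b, in orange, was the 1 gene that passed. The intervals of most others span 0. Most nucleic acid sensors lie left of it, but 0 of them passed.

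The sorted cells carried lymphatic endothelial markers, of which 12 of 13 were listed. Their summed level ran from 303403 to 342930 in WT and from 264309 to 417626 in 5xFAD. Of the 12, 0 passed limma. At an unadjusted p under 0.05 there was 1 higher, Nrp2, against 6.7% of all tested genes. The log2 fold changes of the 12, of which 6 were positive and 6 negative, ran from -0.91 (Tek) to 0.99 (Nrp2; limma adjusted p = 0.119). Prox1, Flt4, Lyve1, Pdpn and Pecam1 had log2 fold changes between -0.25 and 0.28, and none keeps its sign under every scaling, method and left-out library run. Since ZBP1 and caspase-8 are also expressed by leukocytes, those markers were read beside them. Of 10 leukocyte markers 2 were tested, Ptprc (CD45) was not analysed here, and their summed level ran from 1640 to 2458 in WT and from 468 to 3700 in 5xFAD. Itgb2, the leukocyte integrin beta subunit, was at 312, 471 and 89.3 in WT and at 1.66, 0 and 1.33 in 5xFAD. It was called lower (limma adjusted p = 5.02e-09), as were 4.48% of all tested genes. Lcp1 did not pass (limma adjusted p = 0.774) and was highest in 5xFAD 3, at 3699, as Casp8 was. Of 15 macrophage and microglia markers 3 were tested and 0 passed limma, with 0 at an unadjusted p under 0.05. Their sum ran from 10142 to 13600 in WT and from 12307 to 16213 in 5xFAD. In it Mrc1, which lymphatic endothelium also expresses, had a log2 fold change of -0.04 and Cx3cr1 of -0.27. H2-Ab1, an MHC class II chain, was at 657, 1713 and 3484 in WT and 2541, 936 and 8025 in 5xFAD, highest in 5xFAD 3 as Casp8 was. In the blood endothelial list 1 of 7 tested genes fell, against 4.48% of all tested genes. It was Sox17, listed at 0 in all 3 5xFAD libraries. In the fibroblast (5 tested), mural (4), erythroid and platelet (1) and neural and glial (1) lists 0 passed limma, with 0 at an unadjusted p under 0.05. The part of any leukocyte in the levels of Zbp1 and Casp8 was not tested. In sorted bulk cells, more cells with a transcript and more transcript per cell cannot be told apart.

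The genes most like each member across the libraries were taken as the 5 tested genes with the highest Pearson correlation of log2(value + 1) over the 6 libraries, predicted and clone names left out. With so few libraries of 2 genotypes these correlations are descriptions. The points share the genotype difference and the normalisation. For Zbp1 they were Dido1 (r = 0.992), Slc25a48 (0.983), Ssr3 (0.978), Rfx3 (0.963) and Arrdc1 (0.962). All 5 were ordered 5xFAD 1, 5xFAD 2, 5xFAD 3 from high to low, as Zbp1 was, but over different ranges. Dido1 was at 2009, 1779 and 2331 in WT and 4432, 3911 and 3183 in 5xFAD, while the mitochondrial carrier Slc25a48 was at 4.11, 0 and 0.88 and then 135, 98.5 and 23.9. Arrdc1 had no read in any WT library.

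For Casp8 they were Col16a1, a collagen chain (r = 0.998), Spata5 (0.997), Alg9, a mannosyltransferase of N-glycan assembly (0.989), Saa4, a serum amyloid A gene (0.982), and Lncenc1, a long noncoding RNA (0.974). Col16a1 was at 34.5, 15.8 and 40.7 in WT and 308, 85.1 and 398 in 5xFAD, in the same order as Casp8 in both groups but at a lower level. Spata5 was at 130, 61.4 and 153 and then 782, 382 and 1106. Saa4 ran from 59.5 to 95.5 in WT and from 188 to 320 in 5xFAD. Zbp1 was in place 137 among the genes most like Casp8, and Casp8 in place 84 among those most like Zbp1, with predicted and clone names counted.

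**Figure D4:**
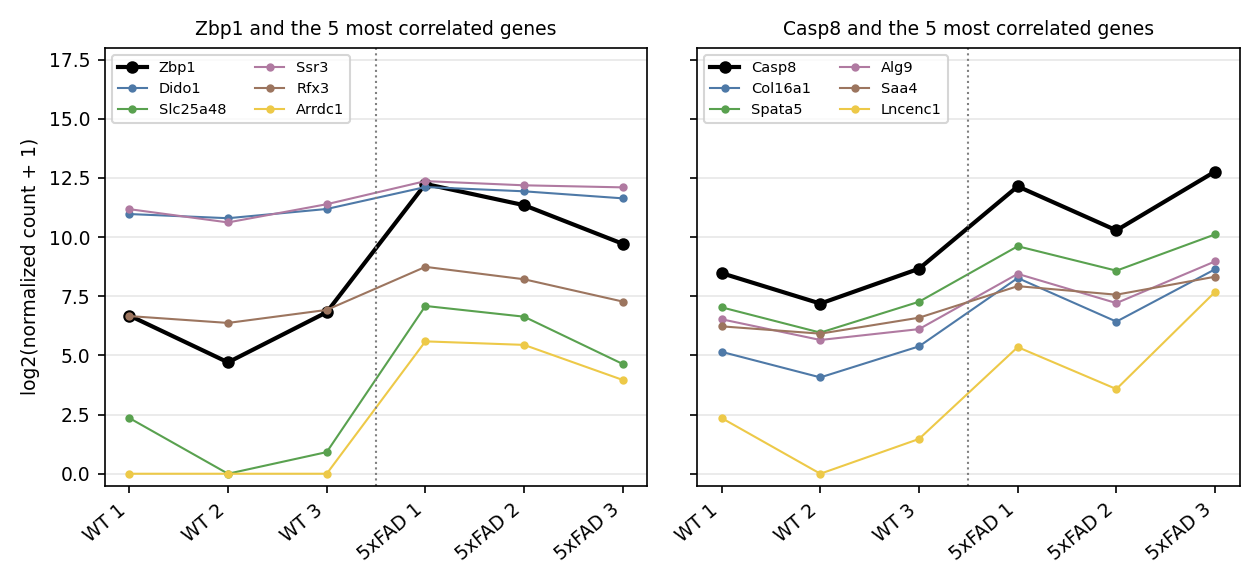
Log2(normalised count + 1) of Zbp1 (left), Casp8 (right) and the 5 genes most correlated with each, by library. Lines join the values of 1 gene, and the dotted line parts WT from 5xFAD. The genes on the left have their lowest 5xFAD value in 5xFAD 3 and those on the right in 5xFAD 2.

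The genes next to each member were then read from the same table. Within 500 kb of Zbp1, 2 genes with a single annotated position were tested, Ctcfl (87.1 kb away) and Bmp7 (266 kb), with log2 fold changes of -0.50 and 0.55. Neither passed limma (adjusted p = 0.893 and 0.877). Within 500 kb of Casp8 there were 6, and 0 passed limma. The nearest was Cflar, 36.5 kb away on the same strand, at -1.17 as above. Fam126b, 209 kb away, was at 946, 610 and 974 in WT and 212, 139 and 211 in 5xFAD, every 5xFAD library below every WT library (log2 fold change -2.16; limma adjusted p = 0.242, unadjusted p = 0.0348). The other 4 were Stradb (-0.89), Nif3l1 (0.19), Clk1 (-0.05) and Cdk15 (0.78). Cdk15, at 102, 20.5 and 100 in WT and 109, 30.4 and 324 in 5xFAD, had its lowest and highest 5xFAD values in the same libraries as Casp8.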

How the data were processed

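RNA was sequenced from sorted meningeal lymphatic endothelial cells, 3 WT and 3 5xFAD libraries. The authors deposited a normalized signal, in which the reads of each gene are scaled by a library's single factor. The submitters' processing notes list the build mm10 and the tools FastQC, Trimmomatic, Salmon and DESeq2, and versions are not given in the sources used here. In every column 100% of values were whole multiples of the smallest value above 0 (within 1e-06), which gave back whole reads, 7960827 to 13255050 in each library when summed across the 4233 genes. They are part of the sequencing depth, and the filter that chose these genes is not given in the sources used here. Replicates are separate pools of mice.

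Genes with a mean of at least 10 (4152) were tested with limma 3.58.1 in R 4.3.3 on log2(value + 1), two-sided, prior variance following mean level, Benjamini-Hochberg over all tested genes, call at an adjusted p under 0.05. Prior degrees of freedom were infinite, so SEs and intervals reflect the spread typical of a gene's level. That spread comes from listed genes only, all within the SD limit of 2 on log2(reads + 1). Leaving out genes of wider spread can make SEs, intervals and p-values too small, and the size of this was not tested. Fold changes on this scale understate those of low genes. The script was tested on simulated data. Positions and exon lengths are from GENCODE M21 (GRCm38, the assembly of mm10), and 453 of 474 Ensembl names were matched to symbols. Igf2bp1, which has Zbp1 as a synonym, has a row of its own.

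Named genes were the members, partners fixed by name, called list members, the highest and lowest of each list and the 5 genes most correlated with each member. Other genes were named after their values were seen. The members and lists were chosen with earlier results of these data known, Ifit3b included. Alternatives were other pseudocounts, filters, prior, scaling, edgeR 4.0.16 and DESeq2 1.42.0 on recovered reads, each library left out and a replicate block.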

Additional observations from a re-analysis of the deposited data

How the results depend on the processing

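All alternatives were listed with earlier results of these data known. Zbp1 was higher in 5xFAD by 4.91 to 5.15 on the log2 scale and Casp8 by 3.50 to 3.81 over the 10 settings that keep all libraries, and with 1 library left out by 4.35 to 5.72 and 3.10 to 4.35. The 78 higher and 186 lower genes of the whole table were 49 and 116 when a mean of 50 was required, which tests fewer genes, 120 and 160 under quantile normalization and 163 and 264 under DESeq2, where the cause was not tested. EdgeR gave 80 and 171. Leaving out single libraries gave 54 to 85 higher and 143 to 192 lower genes, and 0 to 2 higher and 0 lower cell death and sensing genes. With the replicate block there were 80 higher and 190 lower genes, 1 and 0 of them in those lists, and no call of a named gene changed; the deviations of libraries with the same number had correlations of 0.0025, -0.016 and -0.013, and their own number was the best match for 0 of 6. Signs turned for named genes near 0 and for H2-Ab1, each without a call. H2-Ab1 was at 0.76 with all libraries, and its sign turned only without 5xFAD 3. Flt4 was at -0.0050 scaled to the same total and -0.29 with quantile normalization, Bcl2l11 at -0.22 with edgeR and -0.18 with DESeq2, and Pecam1 at 0.044 with DESeq2. With single libraries left out, Bcl2l11 ranged from -0.43 to 1.19, Pecam1 from -0.53 to 0.20, Cdc37 from -0.38 to 0.77, Prox1 from -0.031 to 0.58, Lyve1 from -0.45 to 0.12, Pdpn from -0.39 to 0.22, Cx3cr1 from -0.98 to 0.26, Mrc1 from -0.17 to 0.089 and H2-Ab1 from -0.032 to 1.52. With equal totals the median over all genes went from -0.02 to -0.14, and Zbp1 and Casp8 by as much. Few reads limit the precision of low levels, as for Zbp1 in WT 2, which held 27.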
